A study of Mus musculus with 12 samples.

Results

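Ear1, Ear2, Ear6 and Ear10 are 4 genes of the mouse eosinophil-associated ribonuclease family. They were taken by symbol from the GENCODE M21 annotation, as 4 of the 54115 genes to which the transcripts were assigned, and their reads were also added up to a 4-gene sum. All 4 passed the filter on low counts that left 15367 genes for testing. The 12 RNA libraries came from 5 mice. Each of the 3 groups, blood, gonadal adipose tissue and subcutaneous adipose tissue, had 4 libraries. Every animal was a male, wild-type FVB/NJ mouse on chow, untreated and 20 weeks old. Cells from blood and from fat were sorted alike as live CD45+ CD11b+ SiglecF+ cells after lysis of red blood cells. Fat alone was first digested with collagenase type II at 37 C for 45 min, so tissue and digestion cannot be told apart. Mice 2668 and 2807 gave all 3 tissues, mouse 2683 gave blood and gonadal fat, mouse 2771 gave blood and subcutaneous fat, and mouse 2846 gave both fat depots and no blood.

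The Ear proteins are small secreted enzymes of the RNase A superfamily. They are stored in eosinophil granules and are the mouse counterparts of the human eosinophil granule ribonucleases, eosinophil cationic protein and eosinophil-derived neurotoxin. The family has expanded in rodents by repeated gene duplication, so several copies differ by few bases. Ribonucleases of this family cleave RNA, and some act as antimicrobial or chemoattractant proteins.

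All 4 genes lie on chromosome 14 of mm10, in 2 places. Ear1 (ENSMUSG00000072601.4, 43818765 to 43875517, minus strand), Ear10 (ENSMUSG00000090166.2, 43922720 to 43923559, minus strand) and Ear2 (ENSMUSG00000072596.4, 44102654 to 44103534, plus strand) are neighbours. Ear6 (ENSMUSG00000062148.6, 51853699 to 51854643, plus strand) stands apart from them. The pseudogene Ear-ps2 (ENSMUSG00000072599.3, 44046985 to 44047450, plus strand) lies between Ear10 and Ear2.

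The coding sequences show which copies can be told apart by reads. The first 90 coding bases are given 5′ to 3′ from the GENCODE M21 transcripts, with each base that differs from Ear2 in capitals. For Ear-ps2 the 90 transcript bases that align with them are given.
Ear2: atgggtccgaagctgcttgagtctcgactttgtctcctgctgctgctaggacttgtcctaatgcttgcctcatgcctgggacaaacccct
Ear10: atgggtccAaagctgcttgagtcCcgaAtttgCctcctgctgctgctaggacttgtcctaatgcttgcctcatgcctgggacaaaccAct
Ear-ps2: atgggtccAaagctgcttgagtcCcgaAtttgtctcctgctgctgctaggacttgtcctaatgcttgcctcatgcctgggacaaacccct
Ear1: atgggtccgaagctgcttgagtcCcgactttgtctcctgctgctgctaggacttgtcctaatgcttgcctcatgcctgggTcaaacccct
Ear6: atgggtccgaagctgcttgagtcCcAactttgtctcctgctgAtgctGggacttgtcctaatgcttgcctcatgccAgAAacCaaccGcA
In these 90 bases Ear1 differed from Ear2 at 2 positions, Ear-ps2 at 3, Ear10 at 5 and Ear6 at 10. Over the whole coding sequence, without the stop codon, Ear2 and Ear10 were 97.0% identical, Ear1 and Ear2 95.1%, and Ear1 and Ear10 94.4%. Ear6 was 87.3% to 87.6% identical to the other 3 members. The transcript of Ear-ps2 was 98.3% identical to that of Ear10 and 97.0% to that of Ear2 over its 466 bases.

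Stretches of 31 bases found in no transcript of another gene made up 91.8% of the main Ear6 transcript. They made up 50.5% for Ear10, 39.5% for Ear2, 30.7% for Ear-ps2 and 26.4% for Ear1. The estimated read totals followed this split. The Ear6 totals were whole numbers, within 0.01 reads, in 12 of 12 libraries, while those of Ear1, Ear10 and Ear-ps2 were whole in 0 of 12 and those of Ear2 in 1 of 12. Added over all 17 Ear genes and pseudogenes in the tables, Rnase2a and Rnase2b among them, the totals were again whole in 12 of 12 libraries. Reads were thus not divided between genes for Ear6 and for the family sum, whereas they were for Ear1, Ear2 and Ear10. The 4-gene sum was whole in 0 of 12 libraries, so it too rests on how reads were divided with copies outside the 4. The mm10 build is the genome of another strain, C57BL/6J, and differences between it and the FVB/NJ copies were not examined. The genes annotated across Ear1 and Ear2 on the other strand held 5 and 0 reads over the 12 libraries.

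The sequences before the start sites are shown because the 4 genes are followed as a group. RefSeq promoters of GRCm38.p6, the assembly of mm10, matched 4 of the 4 members. The 250 bases before each start are printed 5′ to 3′ on the gene's own strand, with every CCAAT box in capitals. For Ear6 the 181 bases that lie before its annotated transcripts are given. For Ear1 the window lies before the transcript that held all of its reads, and inside the wider locus given above. The other annotated Ear1 transcript, which starts at 43875517, held 0 reads in each library. The windows are chr14:44102404-44102653 for Ear2, chr14:43819640-43819889 for Ear1 (minus strand), chr14:43923597-43923846 for Ear10 (minus strand) and chr14:51853518-51853698 for Ear6.
Ear2: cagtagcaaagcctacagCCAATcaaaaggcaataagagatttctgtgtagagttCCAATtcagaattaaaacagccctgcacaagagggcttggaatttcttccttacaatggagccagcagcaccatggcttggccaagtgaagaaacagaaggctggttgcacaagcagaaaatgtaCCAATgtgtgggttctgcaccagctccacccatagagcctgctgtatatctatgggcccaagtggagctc
Ear1: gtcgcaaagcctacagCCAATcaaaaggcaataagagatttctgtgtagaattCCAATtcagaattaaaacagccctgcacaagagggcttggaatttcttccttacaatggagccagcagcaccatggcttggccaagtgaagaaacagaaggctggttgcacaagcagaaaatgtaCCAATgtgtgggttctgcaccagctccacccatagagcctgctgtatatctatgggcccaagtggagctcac
Ear10: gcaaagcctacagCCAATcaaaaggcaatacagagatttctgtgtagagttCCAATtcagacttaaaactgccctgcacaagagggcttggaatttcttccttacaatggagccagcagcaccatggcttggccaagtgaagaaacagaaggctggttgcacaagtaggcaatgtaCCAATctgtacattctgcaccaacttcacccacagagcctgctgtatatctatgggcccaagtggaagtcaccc
Ear6: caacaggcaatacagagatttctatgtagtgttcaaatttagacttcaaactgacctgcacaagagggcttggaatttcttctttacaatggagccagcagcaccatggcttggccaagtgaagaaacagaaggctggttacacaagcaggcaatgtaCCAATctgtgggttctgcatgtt
Over the full 250 bases Ear1 and Ear2 were 97.6% identical, Ear1 and Ear10 91.7%, and Ear2 and Ear10 90.6%. Ear6 was 77.3% to 79.2% identical to the other 3. Both strands of the full 250 bases, also for Ear6, were searched for 4 motifs. CCAAT was found 3 times in Ear1, Ear2 and Ear10 and 1 time in Ear6, and in 33.8% of all 32851 RefSeq promoters over the same length. GAGGAA, which ETS factors such as PU.1 can bind, was in 23.3% of promoters and in 0 of these 4 promoters. AGATAA, with its variant TGATAA, is bound by GATA factors. At least 1 of the pair stood in 16.6% of promoters and in 0 of these 4. TATAAA, the core of the TATA box, stood in 12.4% of promoters and again in 0 of these 4. None of these motifs contains another.

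Library depth ranged from 4379954 to 23734940 estimated reads. The subcutaneous library of mouse 2846 was the shallowest, and mitochondrial ribosomal RNA took 28.0% of its reads, against 4.64% to 8.74% in the others. Siglecf, the gene of the sort marker SiglecF, ranged from 231 to 324 CPM (counts per 1000000 reads, on TMM-scaled library sizes) in blood. It ranged from 189 to 524 in gonadal fat and from 149 to 467 in subcutaneous fat. The genes of the other sort markers were called lower in both depots. Itgam, the gene of CD11b, averaged 1905 CPM in blood, 986 in gonadal and 920 in subcutaneous fat (edgeR adjusted p = 0.0152 and 0.00972). Ptprc, the gene of CD45, averaged 3968, 2120 and 2202 CPM (edgeR adjusted p = 0.0171 and 0.023). The granule protein genes Epx and Prg2 were low, with 7.69 and 4.76 CPM as their highest values in any library.

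In blood, Ear2 was the most abundant of the 4 members per transcript length. Its TPM (transcripts per 1000000, a level per length) was 139.6 ± 18.5 in blood (SD, n = 4). That of Ear1 was 31.3 ± 6.44, of Ear6 22.1 ± 9.51 and of Ear10 21.7 ± 7.64 (SD, n = 4 each). Ear2 stood above the other 3 members in each of the 12 libraries, whereas the ranges of Ear1, Ear6 and Ear10 overlapped in every group. Among 21792 protein-coding genes outside the mitochondrial genome, Ear2 ranked 103 to 146 by TPM in the blood libraries. It ranked 623 to 2742 in gonadal and 927 to 5790 in subcutaneous fat. Ear1 ranked 827 to 987 in blood and 4579 to 10809 in the fat libraries. Ear6 ranked 818 to 2457 in blood and Ear10 1038 to 1602, and neither came above rank 6266 in fat. Per length, Ear2 still led in fat, with a TPM of 22.5 ± 11.9 in gonadal and 9.39 ± 7.32 in subcutaneous fat (SD, n = 4 each). The other 3 members averaged between 0.825 and 2.66 TPM there.

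All 4 members were far lower in both fat depots than in blood. Ear2 stood at 201.8, 221.0, 288.9 and 214.7 CPM in the blood libraries of mice 2807, 2771, 2683 and 2668. In gonadal fat it stood at 42.4, 22.6, 63.3 and 16.3 CPM in mice 2846, 2807, 2683 and 2668. In subcutaneous fat it stood at 44.0, 11.96, 5.76 and 9.57 CPM in mice 2846, 2807, 2771 and 2668. Every blood library lay above every fat library, and the lowest blood value was 3.19 times the highest gonadal one. Mice 2683 and 2846 were the high animals in gonadal fat, and mouse 2846 alone was high in subcutaneous fat. Ear2 fell 6.40-fold from blood to gonadal fat (log2 fold change -2.68, SE 0.602, edgeR adjusted p = 0.00823). It fell 13.6-fold from blood to subcutaneous fat (log2 fold change -3.77, SE 0.641, edgeR adjusted p = 0.0019). With mouse 2846 left out of the subcutaneous group, the latter log2 fold change was -4.65.

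**Figure D1:**
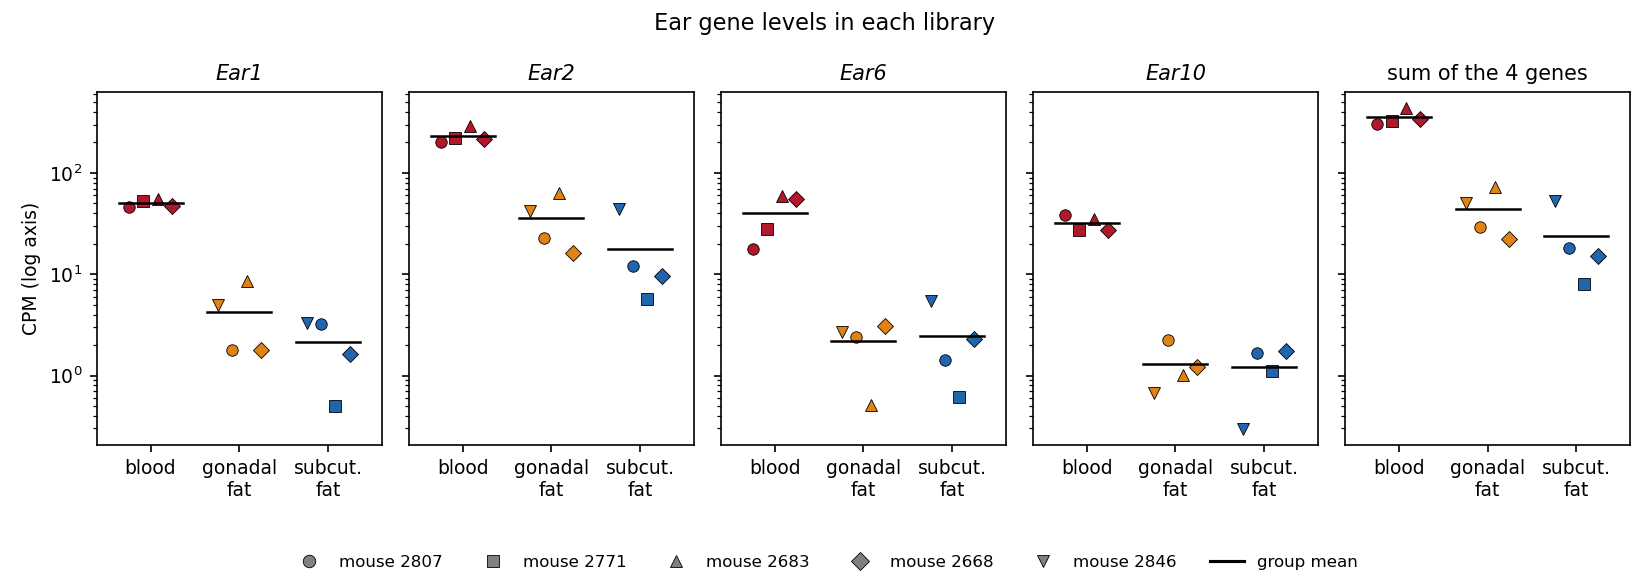
Level of each Ear gene and of the 4-gene sum in each of the 12 libraries, in CPM on a log axis, with a symbol for each mouse, a colour for each tissue and bars for group means of 4 libraries. In each panel the 4 blood libraries lie above all 8 fat libraries, and the 2 fat depots overlap.

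Ear1 is the member with the smallest share of sequence of its own. It stood at 46.3, 53.0, 55.0 and 47.0 CPM in blood, with mice ordered as above. In gonadal fat it stood at 5.02, 1.80, 8.56 and 1.77 CPM, and in subcutaneous fat at 3.29, 3.25, 0.495 and 1.62 CPM. The blood values lay within a narrow band, and the same 2 gonadal libraries as for Ear2, of mice 2683 and 2846, were the high ones. The level fell 11.6-fold in gonadal fat (log2 fold change -3.54, SE 0.586, edgeR adjusted p = 0.00128). Without the gonadal library of mouse 2683 the log2 fold change was -4.16. In subcutaneous fat Ear1 fell 24.6-fold (log2 fold change -4.62, SE 0.637, edgeR adjusted p = 0.000421). The value of mouse 2771 there rested on 8.10 estimated reads.

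Ear10, the member closest to Ear2 in coding sequence, had a larger fitted fall in gonadal fat than the other 3. With mouse as a block Ear6 had the larger one, at -4.80 against -4.49. Of the stretches of 31 bases in the Ear2 transcript, 40.2% also stood in Ear1 and 34.4% in Ear10. Differences in size between members were tested only as shares of reads, given further on. Levels of Ear10 were 38.1, 27.4, 34.8 and 27.6 CPM in blood, 0.679, 2.23, 1.02 and 1.22 CPM in gonadal fat, and 0.299, 1.66, 1.11 and 1.77 CPM in subcutaneous fat. The lowest blood library stood 12.3 times above the highest fat library. The fold was 24.9 in gonadal fat (log2 fold change -4.64, SE 0.443, edgeR adjusted p = 2.35e-05). It was 24.4 in subcutaneous fat (log2 fold change -4.61, SE 0.449, edgeR adjusted p = 2.54e-05). The fat libraries that were high for Ear2 were low for Ear10, and the subcutaneous library of mouse 2846 held only 1.03 estimated reads of it, under the 3 counts taken as a floor.

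Ear6, whose reads are almost all its own, gave the same direction. It stood at 17.8, 28.1, 59.0 and 55.0 CPM in the blood of mice 2807, 2771, 2683 and 2668. The gonadal values of mice 2846, 2807, 2683 and 2668 were 2.71, 2.38, 0.510 and 3.11 CPM, and the subcutaneous values of mice 2846, 2807, 2771 and 2668 were 5.39, 1.43, 0.619 and 2.28 CPM. Blood varied more for Ear6 than for the other members, with a coefficient of variation of 50.4% against 8.61% for Ear1, 16.7% for Ear10 and 16.9% for Ear2. The lowest blood library still lay 3.30 times above the highest fat library. Ear6 fell 18.5-fold in gonadal fat (log2 fold change -4.21, SE 0.695, edgeR adjusted p = 0.00127). Its log2 fold change in subcutaneous fat was -4.20 (SE 0.714, edgeR adjusted p = 0.0016). The gonadal library of mouse 2683, the highest for Ear1 and Ear2, was the lowest for Ear6 and held 13 reads of it.

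The 4-gene sum was 304.0, 329.5, 437.7 and 344.3 CPM in blood. It was 50.8, 29.0, 73.4 and 22.4 CPM in gonadal fat and 53.0, 18.3, 7.99 and 15.2 CPM in subcutaneous fat. Group means were 353.9 ± 58.3, 43.9 ± 23.1 and 23.6 ± 20.1 CPM (SD, n = 4 each). The sum fell 8.05-fold from blood to gonadal fat (log2 fold change -3.01, SE 0.541, edgeR adjusted p = 0.00233). It fell 15.5-fold from blood to subcutaneous fat (log2 fold change -3.95, SE 0.570, edgeR adjusted p = 0.000672), and the log2 fold change was -4.66 without the subcutaneous library of mouse 2846. The sum over all 17 family genes was 511.2 ± 74.0, 63.9 ± 29.2 and 33.05 ± 23.8 CPM (SD, n = 4 each). In these bulk samples fewer cells that express a gene and less of its RNA per cell cannot be told apart.

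Of the 4 members, 4 were called lower and 0 higher in gonadal fat. Of all genes tested, 11.6% were called lower and 15.4% higher. In subcutaneous fat the counts were again 4 and 0, beside 11.4% lower and 15.4% higher among all genes. The median log2 fold change of the members was -3.87 in gonadal and -4.41 in subcutaneous fat, while that of all genes tested was 0.08 and 0.07. Both comparisons use the same 4 blood libraries and are not independent. The same counts, 4 lower in each depot, were found in all 27 fits, which comprised the main one, 14 other settings and 12 with 1 library left out.

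**Figure D2:**
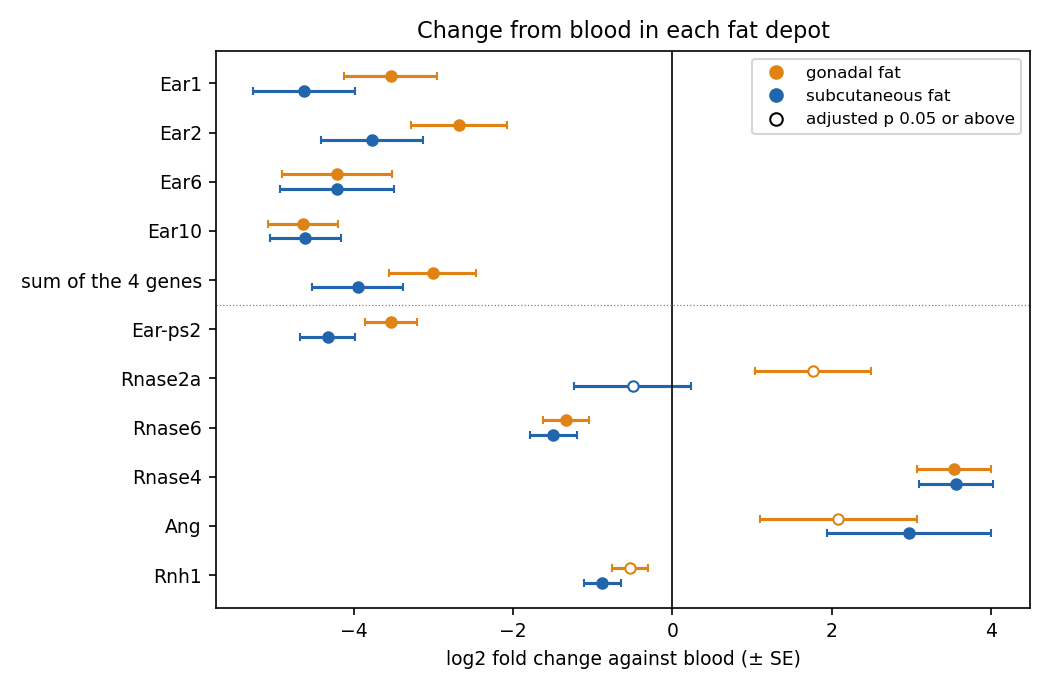
Log2 fold change from blood (horizontal axis, with SE) of the 4 Ear genes, their sum and related genes, in gonadal fat and in subcutaneous fat, with open circles for an edgeR adjusted p of 0.05 or above. The Ear genes lie between -4.64 and -2.68, Rnase4 lies above 0 in both depots, and Rnase2a lies at 1.77 and -0.50.

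Within single animals the direction was the same. Blood exceeded gonadal fat for the 4-gene sum by 15.4-fold in mouse 2668, 10.5-fold in mouse 2807 and 5.96-fold in mouse 2683. Against subcutaneous fat the excess was 22.6-fold in mouse 2668, 16.6-fold in mouse 2807 and 41.2-fold in mouse 2771. Each of the 4 members was higher in blood in every one of these 6 same-mouse pairs. The smallest excess was 4.56-fold, for Ear2 between blood and gonadal fat of mouse 2683. The largest was 115.5-fold, for Ear6 in the same pair. The next largest was 106.9-fold, for Ear1 between blood and subcutaneous fat of mouse 2771. For Ear10 the same-mouse excess lay between 15.6-fold, in subcutaneous fat of mouse 2668, and 34.1-fold, in gonadal fat of mouse 2683. Mouse 2683 thus had both the smallest excess of Ear2 and the largest of Ear10 and Ear6. Mice 2668 and 2807, sampled in all 3 tissues, held more Ear2 in blood than in gonadal fat by 13.2-fold and 8.95-fold and more than in subcutaneous fat by 22.4-fold and 16.9-fold.

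No difference between the fat depots passed the test. Of the 4 members 0 were called between gonadal and subcutaneous fat by edgeR, 0 had an unadjusted p below 0.05 in the main fit, and DESeq2 also called 0. Of all genes tested 0.00651%, 1 gene, was called. Some other settings gave members with an unadjusted p below 0.05, and 0 called. There was 1 with mouse as a block in edgeR and 1 with mouse as a random block in limma-voom. There were 2 in edgeR without the gonadal library of mouse 2668. The log2 fold change of gonadal against subcutaneous fat was 1.09 for Ear1 (SE 0.585, edgeR adjusted p = 0.688), 1.09 for Ear2 (SE 0.590, edgeR adjusted p = 0.691) and 0.94 for the sum (SE 0.517, edgeR adjusted p = 0.694). Leaving out mouse 2846 from subcutaneous fat gave 1.99 for Ear2 and 1.66 for the sum, and leaving out mouse 2683 from gonadal fat gave 0.49 for Ear1, with no call. Those of Ear6 and Ear10 lay near 0, at -0.0046 and -0.03, and their sign changed with the settings. The ranges of the depots overlapped for every member. In mouse 2846, the animal sampled in both depots but not in blood, Ear2 was 42.4 CPM in gonadal and 44.0 CPM in subcutaneous fat. In mice 2807 and 2668 it was higher in gonadal fat, with same-mouse log2 ratios of 0.91 and 0.77.

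The make-up of the Ear reads was compared as the share that each member held of the 4-gene estimated reads, which asks whether the members moved by different amounts. In blood Ear2 held 66.4%, 67.1%, 66.0% and 62.4% of these reads in mice 2807, 2771, 2683 and 2668. In gonadal fat it held 83.4%, 78.0%, 86.2% and 72.8% in mice 2846, 2807, 2683 and 2668, all above the blood libraries. In subcutaneous fat it held 83.1%, 65.4%, 72.4% and 62.6% in mice 2846, 2807, 2771 and 2668, which overlaps with blood. The mean share of Ear2 was thus 14.7 percentage points higher in gonadal fat than in blood (exact two-sided permutation p = 0.0286, adjusted 0.114 over 12 tests). The shares of Ear1 and Ear10 differed by -5.53 and -5.20 points, each with the same p, which is the smallest that 4 against 4 libraries can give. After adjustment none of the 12 share tests passed 0.05, with 3 under 0.05 before it. The shares of a library add up to the whole, so these 3 are not independent. The permutations also did not use the pairing of libraries from the same mouse. The share of Ear6 differed by -3.93 points (exact permutation p = 0.314, adjusted 0.495). Ear10 held 12.5%, 8.33%, 7.95% and 8.02% of the reads in blood, and 1.39%, 7.67%, 1.41% and 5.56% in gonadal fat. The blood shares lay above the gonadal ones, with mouse 2807 high in blood and mice 2846 and 2683 low in gonadal fat. In subcutaneous fat the share of Ear10 spread from 0.580% in mouse 2846 to 13.6% in mouse 2771, around the blood values. Because Ear1, Ear2 and Ear10 share most of their sequence, these shares rest on how reads were divided among copies.

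**Figure D3:**
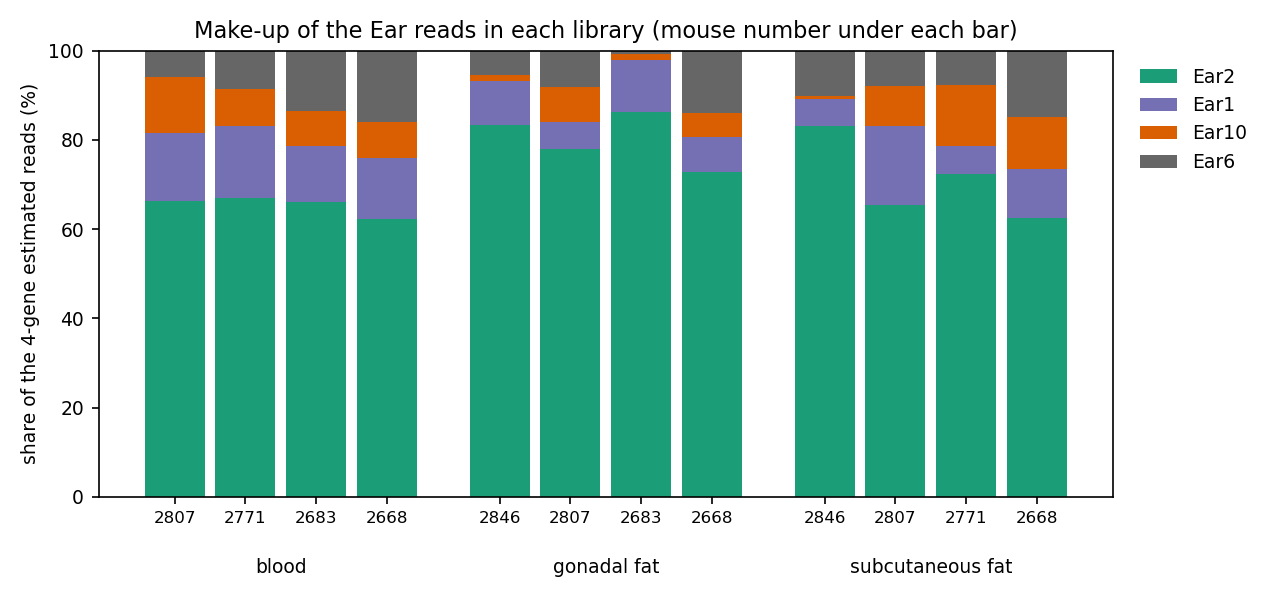
Share of the 4-gene estimated reads held by Ear2, Ear1, Ear10 and Ear6, as stacked bars from 0 to 100% for each of the 12 libraries, with the mouse number under each bar. Ear2 holds 62.4% to 67.1% in blood and 72.8% to 86.2% in gonadal fat.

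Across the 12 libraries the log2 levels of Ear1 and Ear2 ran together, with a Pearson r of 0.97. Once group means were subtracted, r was still 0.84 for Ear1 and Ear2, but -0.70 for Ear2 and Ear10 and 0.27 for Ear2 and Ear6. These correlations describe the libraries only. The members share sequence, depth and the division of reads. The part of that division in these values was not tested.

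The most abundant relative outside the 4 members was the pseudogene Ear-ps2. Its levels were 147.7, 136.6, 176.9 and 159.9 CPM in blood, 19.7, 11.2, 13.4 and 9.63 CPM in gonadal fat and 13.5, 8.16, 4.03 and 6.55 CPM in subcutaneous fat. It followed the members, with every blood library above every fat library. Its log2 fold change was -3.53 in gonadal fat (SE 0.327, edgeR adjusted p = 1.9e-05) and -4.33 in subcutaneous fat (SE 0.345, edgeR adjusted p = 6.53e-06). Per length, its TPM exceeded that of Ear2 in each blood library, with 193.1 ± 38.0 against 139.6 ± 18.5 (SD, n = 4 each). Of its stretches of 31 bases, 51.6% also stood in Ear10, 42.7% in Ear1 and 41.7% in Ear2, so a level assigned to Ear-ps2 may belong to another copy.

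Rnase2a, another eosinophil-associated ribonuclease gene, was not called in either depot. It stood at 1.31, 0.751, 1.99 and 3.08 CPM in blood, at 8.75, 3.03, 9.90 and 2.62 CPM in gonadal fat and at 1.497, 0.317, 2.73 and 0.515 CPM in subcutaneous fat. Gonadal libraries of mice 2846 and 2683 were highest and the other libraries overlapped. Its log2 fold change from blood was 1.77 in gonadal fat (SE 0.731, edgeR adjusted p = 0.0905) and -0.50 in subcutaneous fat (SE 0.738, edgeR adjusted p = 0.650). DESeq2 gave an adjusted p of 0.045 for the gonadal comparison, and 10 of 14 other settings left it above 0.05. In those 14 settings its adjusted p ranged from 0.0158 to 0.229. Its coding sequence was 77.2% to 79.7% identical to the members. Of the 24 family symbols looked for, 16 matched a gene in the tables and 6 were tested, of which 5 were lower and 0 higher in each depot. Over all genes tested, 15.4% were higher in each depot, and 11.6% were lower in gonadal and 11.4% in subcutaneous fat. Rnase2b and 8 of the annotated pseudogenes had 0 reads, Ear14 had 8 reads over the 12 libraries and Ear-ps10 46.

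Other members of the RNase A superfamily moved in different directions. Rnase6, an antimicrobial ribonuclease of myeloid cells, had 39.9 ± 5.68 CPM in blood, 15.9 ± 4.45 in gonadal and 14.0 ± 5.41 in subcutaneous fat (SD, n = 4 each). It fell with log2 fold changes of -1.33 and -1.496 (SE 0.291 and 0.294, edgeR adjusted p = 0.00579 and 0.00327). On log2 TPM its gonadal adjusted p was 0.0671 by limma. Rnase4, a ribonuclease of broad tissue expression, rose from 3.24 ± 1.009 CPM in blood to 37.7 ± 19.5 in gonadal and 38.6 ± 19.3 in subcutaneous fat (SD, n = 4 each). Its log2 fold changes were 3.53 and 3.56 (SE 0.461 and 0.463, edgeR adjusted p = 0.000258 and 0.000271). Ang, the angiogenin gene, overlaps Rnase4 on the same strand. The read totals of both genes were whole, within 0.01 reads, in 12 of 12 libraries. It averaged 0.538 ± 0.515 CPM in blood, 2.32 ± 1.66 in gonadal and 4.43 ± 5.56 in subcutaneous fat (SD, n = 4 each). Its edgeR adjusted p was 0.135 for gonadal and 0.0478 for subcutaneous fat, and leaving out mouse 2846 from subcutaneous fat gave 0.195. With mouse as a block the subcutaneous value was 0.349, and 6 of 14 other settings left it below 0.05. Ang5 stood at 6.29 CPM in the blood library of mouse 2807, at 0.105 CPM or less in the other 11, and was too low to be tested. Of 13 superfamily genes matched, 3 were tested, with 1 higher and 1 lower in gonadal fat and 2 higher, Ang included, and 1 lower in subcutaneous fat. Over all genes tested, 15.4% were higher in each depot, and 11.6% were lower in gonadal and 11.4% in subcutaneous fat.

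**Figure D4:**
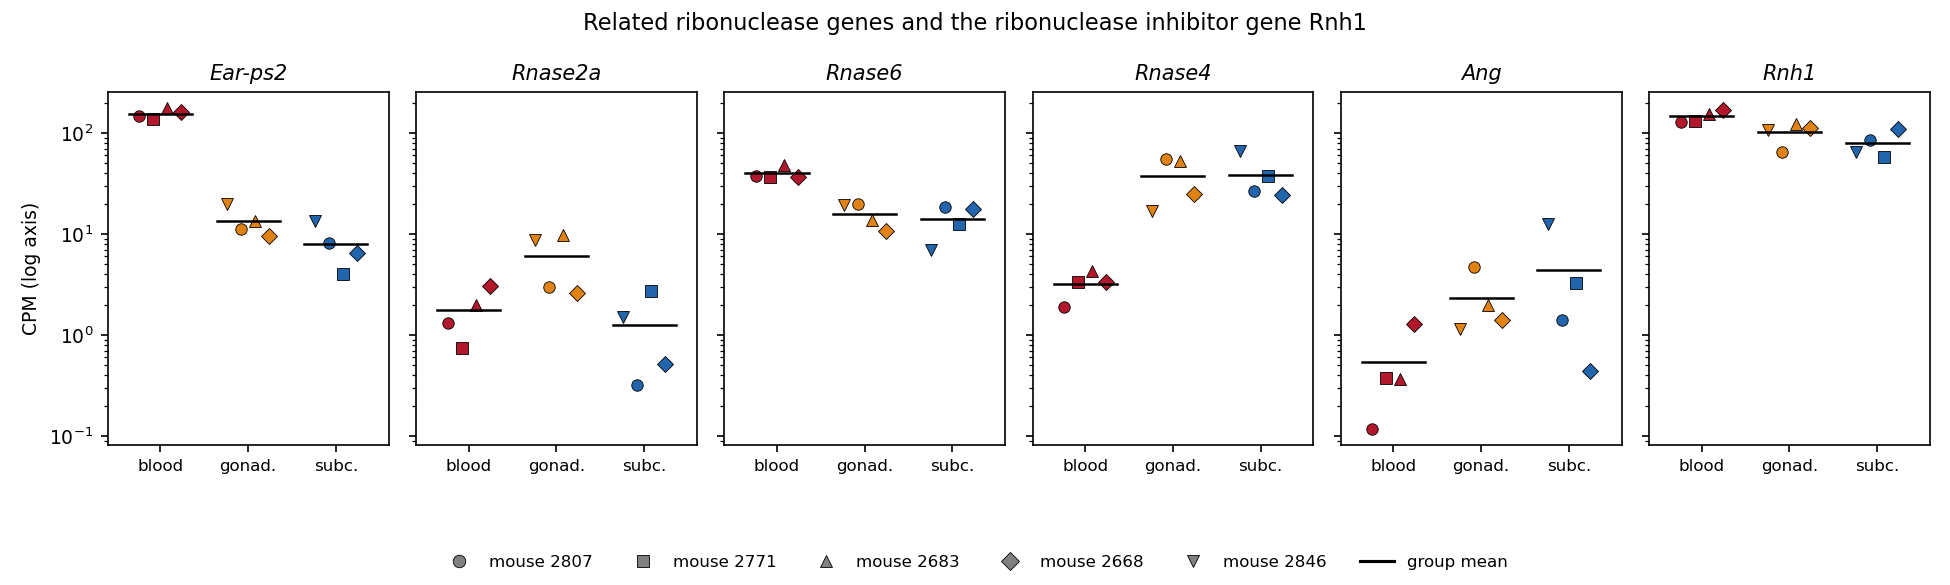
Levels of Ear-ps2, Rnase2a, Rnase6, Rnase4, Ang and the ribonuclease inhibitor gene Rnh1 in the 12 libraries, in CPM on a log axis, with symbols for mice, colours for tissues and bars for group means. Ear-ps2 and Rnase6 are highest in blood, Rnase4 is lowest there, and Rnase2a is highest in 2 gonadal libraries.

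Rnh1 encodes the cytosolic ribonuclease inhibitor, which binds RNase A family enzymes. It stood at 129.9, 132.2, 156.1 and 169.6 CPM in blood, 106.1, 65.4, 123.3 and 111.7 CPM in gonadal fat and 64.4, 86.3, 57.7 and 110.7 CPM in subcutaneous fat. All blood libraries lay above all fat libraries, by a small margin. Its log2 fold change was -0.53 in gonadal fat (SE 0.230, edgeR adjusted p = 0.103) and -0.88 in subcutaneous fat (SE 0.232, edgeR adjusted p = 0.0153). On log2 TPM the subcutaneous adjusted p was 0.0621 by limma.

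Markers of other cells moved beside the Ear genes. On the neutrophil list 8 of 10 tested genes were lower and 0 higher in each depot. Among all genes tested, 11.6% were lower and 15.4% higher in gonadal fat, and 11.4% and 15.4% in subcutaneous fat. The summed level of the neutrophil list was 3106 to 4645 CPM in blood, 387 to 814 CPM in gonadal and 427 to 1313 CPM in subcutaneous fat. It was thus lower in every fat library, as the Ear genes were. In blood most of it was Retnlg, a resistin-like gene, with 2206 to 3298 CPM, and in fat Retnlg and Mmp9, a matrix metalloproteinase gene, held most. Csf3r, the receptor of granulocyte colony-stimulating factor, averaged 325.1 CPM in blood, 11.1 in gonadal and 18.5 in subcutaneous fat, and the calprotectin gene S100a9 154.8, 2.10 and 4.63 CPM. Both were called lower in each depot. Ly6g and Camp, of the same list, averaged 0.943 and 0.168 CPM in blood and were at 0 in all 8 fat libraries. On the list of Ly6C-low monocytes, 3 of 8 genes were lower and 1 higher in each depot, and the sum was 1135 to 1259 CPM in blood, 1086 to 1463 CPM in gonadal and 1059 to 1954 CPM in subcutaneous fat. In fat most of that sum was Nr4a1, an immediate early gene, which rose from 20.98 CPM in blood to 1075 in gonadal and 1221 in subcutaneous fat. Itgal, an integrin gene, fell from 833.6 to 109.8 and 195.2 CPM, and Spn, which encodes CD43, from 271.3 to 66.5 and 74.3 CPM. The part of these cells in the Ear levels was not tested.

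The monocyte sum was highest in the gonadal libraries that were high for Ear1, Ear2 and Rnase2a. It was 6689 CPM in mouse 2683, 3805 in mouse 2846, 1500 in mouse 2807 and 801 in mouse 2668, most of it from the fibronectin gene Fn1. In gonadal fat the 4 libraries had the same order for the monocyte sum and for Ear2, and another order for Ear6 and Ear10. The adipocyte sum had that same order too, at 87.1, 38.1, 23.3 and 11.1 CPM in mice 2683, 2846, 2807 and 2668. In subcutaneous fat the monocyte sum was 1415, 353, 746 and 269 CPM in mice 2846, 2807, 2771 and 2668. There its order differed from that of Ear2, which was lowest in mouse 2771. In blood the sum was highest in mouse 2807, at 1900 CPM against 78 to 354 CPM in the other 3 blood libraries, and Ear2 was lowest there. Of 7 monocyte genes 1 was higher and 0 lower in each depot. Among all genes tested, 15.4% were higher in each depot, and 11.6% were lower in gonadal and 11.4% in subcutaneous fat. On the macrophage list 7 of 14 genes were higher and 0 lower in each depot, and the sum was 388 to 960 CPM in blood, 1267 to 4836 CPM in gonadal and 1456 to 5817 CPM in subcutaneous fat. On the fibroblast list 6 of 8 genes were higher and 0 lower in each depot. The fibroblast sum was 4139 CPM in the subcutaneous library of mouse 2846, the one with the highest Ear2 in that depot, against 255 to 420 CPM in the other 3. The adipocyte list had 3 of 4 genes higher and 0 lower in each depot, with a sum of at most 4.39 CPM in blood and 5.59 to 128.5 CPM in fat. B cell genes were lower for 6 of 7 in gonadal and 0 of 7 in subcutaneous fat, T cell genes lower for 4 of 9 in gonadal and higher for 3 of 9 in subcutaneous fat, and red cell genes lower for 3 of 5 in gonadal and 0 of 5 in subcutaneous fat. The red cell sum was 8353 CPM in the blood library of mouse 2771. It was 17.7, 48.2 and 143.5 CPM in blood of mice 2807, 2683 and 2668, which overlaps with 21.1 to 99.7 CPM in gonadal fat. Whether such cells contributed to the Ear levels was not tested.

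The genes whose pattern was most like that of the 4-gene sum were sought among 6031 protein-coding genes with at least 20 CPM in their highest group. The 5 with the highest Pearson r of log2 CPM over the 12 libraries were Sash3 (0.98), Rab3d (0.96), Acaa1a (0.95), Bnip3l (0.95) and Zbtb7a (0.95). Sash3 encodes a lymphoid and myeloid adaptor protein and Rab3d a small GTPase of secretory granules. Acaa1a encodes a peroxisomal thiolase, Bnip3l a mitophagy receptor and Zbtb7a a transcriptional repressor. Their log2 fold changes from blood lay between -1.36 and -0.70 in gonadal and between -1.64 and -0.72 in subcutaneous fat, closer to 0 than those of the 4 members. Sash3 averaged 183.5 ± 17.8, 78.8 ± 14.6 and 65.9 ± 8.06 CPM in blood, gonadal and subcutaneous fat (SD, n = 4 each), and Rab3d 41.7 ± 10.3, 16.3 ± 1.84 and 13.6 ± 5.95 CPM. The libraries share depth and tissue, and these values carry no test.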

How the data were processed

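Libraries of sorted eosinophil RNA, 12 in all, were made with a stranded total RNA kit for low input, per the labels' protocols. The submitters' processing notes name the mm10 build, DESeq2 1.30.1, Salmon 1.6.0 and Trim Galore 0.6.4. The authors' deposited tables hold expected counts, which need not be whole, TPM and effective lengths for 140992 transcripts, per the file headers. The annotation release and the use of strand are not given in the sources used here. With GENCODE M21, 139791 transcripts could be assigned. The remaining 1201, which held 0.351% to 0.538% of a library's reads, were left out.

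Counts were summed per gene and rounded. They were tested with edgeR 4.0.16 in R 4.3.3 (robust quasi-likelihood test, TMM, filterByExpr by group, all 12 libraries in 1 fit with tissue as the only term). Adjustment followed Benjamini and Hochberg over 15367 genes, with a threshold of 0.05. SEs were computed from the log2 fold change and the F statistic. For the sum, the 4 rows were replaced by 1. Shares of the 4-gene reads were compared by exact permutation tests. Alternatives included DESeq2 1.42.0, limma 3.58.1, log2 of TPM + 1, other scalings and filters, a block for mouse and each library left out. The edgeR code was tested on simulated data. Identities were computed with Biopython 1.88.

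Depth was 4379954 to 23734940 estimated reads, and 3 counts correspond to 0.127 to 0.687 CPM before TMM scaling. Floors cover counting error only, because no molecular identifiers are named in the labels. Libraries with the same mouse number come from the same animal, per the labels, and are paired. Deviations from group means correlated at -0.111 to 0.358 over 9 same-mouse pairs (mean 0.0842, against -0.0188 for different mice). Libraries of a group come from different mice. The labels give no batch.

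Members, gene lists and alternatives were chosen with earlier results of these data known. The text names the 4 members, those genes of the Ear family and RNase A superfamily lists that reached 1 CPM on average in a group, Rnh1, up to 3 genes of each other list and the 5 genes most like the sum. Siglecf, Epx, Prg2, Prg3, Ly6g, Camp, Csf3r, S100a9, Mmp9, Nr4a1, Itgal, Spn, Gata1, Cebpe and Gata2 were added after their values were seen.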

Additional observations from a re-analysis of the deposited data

Results flagged for a closer look

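In the subcutaneous library of mouse 2846, Ear2 stood at 44.0 CPM, far from the other 3 subcutaneous libraries at 5.76 to 11.96 CPM. The gap to the nearest library was 0.838 of the range of the group, above Dixon's 95% critical value for 4 samples. This library had 147 estimated reads of Ear2 and the lowest depth of the 12. Its fibroblast, monocyte and adipocyte sums, at 4139, 1415 and 128 CPM, were among those that were highest in its depot. The part of depth or of other cells in this value was not tested. In the blood library of mouse 2807, Ear10 held 12.5% of the 4-gene reads, against 7.95% to 8.33% in the other 3 blood libraries, with a gap of 0.918 of the range. That library also had the highest sums in blood for several lists, among them monocyte, macrophage and B cell, at 1900, 960 and 469 CPM. The part of such cells was not tested. In all, 30 groups of 4 values were checked, and chance flags about 1 in 20.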

How the results depend on the processing

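All 4 members and their sum stayed lower in each depot than in blood, past the threshold, under each of the 14 other settings and with any 1 library left out. The sum also did so with all 17 family genes (15 settings). Across these settings log2 fold changes ranged from -5.03 (Ear6, subcutaneous) to -2.66 (Ear2, gonadal), and the highest adjusted p was 0.0288. Single libraries moved them to between -5.05 (Ear10, gonadal) and -2.43 (Ear2, gonadal), with adjusted p up to 0.0232. With mouse as a replicate block, which changed no call of a member but ended that of Ang in subcutaneous fat (adjusted p = 0.349), the gonadal values of Ear1, Ear2, Ear6 and Ear10 were -4.20, -3.34, -4.80 and -4.49, that of the sum was -3.60, and the subcutaneous ones were -4.72, -4.25, -4.76 and -4.51. No setting moved the median of all genes by over 0.1. Between depots, where no member was called, the sign of Ear6 turned: 0.013 with no filter, 0.011 with the random block, 0.49 with sample weights, 0.046 with length offset, 0.00049 without mitochondrial genes, 0.095 on log2 TPM, and 0.58 with both subcutaneous 2846 and blood 2807 left out. Ear10 turned to 0.024 with the replicate block, 0.019 with the 2 groups alone, 0.032 with length offset and 0.11 on log2 TPM. Without 1 library, Ear6 ranged from -0.37 to 0.58, Ear10 from -0.42 to 0.17, Ear1 from 0.49 to 1.49, Ear2 from 0.69 to 1.99 and the sum from 0.59 to 1.66. The share differences of Ear6 and Ear10 between subcutaneous fat and blood ranged from -2.49 to 0.88 and from -2.10 to 2.24 points, and that of Ear1 between depots from -2.77 to 1.08 points. The causes were not tested. Genes called among all tested numbered 4152 in gonadal and 4121 in subcutaneous fat against blood. They numbered 6484 and 4753 with sample weights, 1477 and 1390 on log2 TPM, 2753 (gonadal) without the blood library of mouse 2771, 2737 (subcutaneous) without that of mouse 2683, and 2689 (subcutaneous) with protein-coding transcripts alone. Between depots 1 was called, 152 with DESeq2 and 0 to 7 otherwise. Depth limits the low fat values: Ear10 had 63.7 reads and Ear6 77 over the 4 subcutaneous libraries.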

Other observations

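The fold changes of genes on the granule, eosinophil surface and lineage lists differed in direction. The granule list was not limited to eosinophil granules and also held lysozyme genes such as Lyz2. Of 11 tested granule genes, 2 were higher and 0 lower in gonadal fat, and 1 was higher and 0 lower in subcutaneous fat (all genes tested: 15.4% higher and 11.6% lower in gonadal, 15.4% and 11.4% in subcutaneous fat). Srgn, the serglycin core of granule proteoglycans, averaged 543.9 ± 42.5 CPM in blood, 1145 ± 396 in gonadal and 1212 ± 491 in subcutaneous fat (SD, n = 4 each), and its edgeR adjusted p was 0.0266 and 0.0196. Epx averaged 4.45 ± 2.02, 4.49 ± 1.86 and 3.95 ± 3.24 CPM in the 3 groups (edgeR adjusted p = 0.994 and 0.916). Prg2 and Prg3, also low, lay in the direction of the Ear genes but were not called. Their log2 fold changes were -1.80 and -2.27 in gonadal fat (edgeR adjusted p = 0.129 and 0.197). In subcutaneous fat they were -1.29 and -0.69 (edgeR adjusted p = 0.268 and 0.699). The median over the tested granule genes was 0.67 in gonadal and 0.03 in subcutaneous fat. With so few genes of mixed kinds, these counts and medians do not describe eosinophil granule genes as a set. Of 11 tested surface genes, 5 were lower in each depot, and 2 were higher in gonadal and 1 in subcutaneous fat. Of 12 lineage genes, 3 were higher in each depot, and 3 were lower in gonadal and 4 in subcutaneous fat. Gata1 and Cebpe, factors of eosinophil development, were among the lower ones, from 66.5 ± 9.03 and 64.0 ± 13.7 CPM in blood to 26.1 ± 10.4 and 25.6 ± 5.13 CPM in gonadal fat (SD, n = 4 each). Gata2 was among the higher ones, from 2.87 ± 0.879 to 17.9 ± 7.78 CPM.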
